A study of Mus musculus with 45 samples.

Results

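Mouse embryonic fibroblasts (MEFs) lacking p53 were compared after 3 h of LPS and after 3 h of either of the cytokines IL-1b and TNF. The comparison took the 12 p53-/- libraries collected at 0 and 3 h, of 45 libraries in the series: for each of the 3 stimuli there were 2 unstimulated and 2 stimulated libraries, from the replicates labelled KO-1 and KO-2. For every gene, the change from the 0 h libraries of the LPS series to its 3 h libraries was set against the same change averaged over the IL-1b and TNF series, so that a positive difference means a higher response to LPS.

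Messenger RNA was measured by poly(A) RNA sequencing with a stranded kit in primary C57BL/6 MEFs, which are connective tissue cells grown from embryos. All cultures had been kept overnight in medium low in calf serum before a stimulus was added to the medium: 10 ng/ml for each of the cytokines IL-1b and TNF, and 100 ng/ml for LPS. According to the series design, absence of p53 lets primary MEFs be grown for long enough for retroviral work, and the time courses were run to see how p53-deficient cells and their wild-type (WT) littermate cells compare in inflammatory gene induction. All 12 libraries compared here lack p53, the 0 h libraries included, and the 6 WT libraries at the same times (1 for each stimulus and time) are given beside them. The design text calls KO-1 and KO-2 biological replicates, but no label says whether they came from separate embryos, so the p-values measure the spread between these 2 sets of cultures.

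LPS is a component of the outer membrane of Gram-negative bacteria. Toll-like receptor 4, with its partners CD14 and MD-2, senses it and signals through 2 adaptors: MyD88, which leads to NF-kB and MAP kinases, and TRIF, which also leads to the transcription factor IRF3 and to interferon-beta. The IL-1 receptor signals through MyD88 and the TNF receptor through TRADD and RIPK1, and both lead to NF-kB. Secreted interferon acts through its receptor, JAK kinases and transcription factors of the STAT family with IRF9 on genes that carry an interferon-stimulated response element (ISRE), many of which code for antiviral proteins.

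The 12 libraries held between 7630893 and 11348859 counts assigned to genes, with a median of 9020694.5. Mitochondrial genes took between 0.411% and 0.706% of gene counts and the 10 most abundant genes between 6.64% and 7.46%. The summed level of 25 fibroblast and matrix genes lay between 54769 and 66545 CPM in these libraries; CPM are counts relative to the TMM-scaled gene total of a library. The 20 listed macrophage markers summed to between 496 and 757 CPM, and all 20 had counts in each of the 30 p53-/- libraries, so RNA of macrophage type was present in cultures labelled as fibroblasts. In such bulk libraries, fewer cells of a type and less RNA per cell cannot be told apart. Trp53, which encodes p53, was between 55.1 and 83.0 CPM in the 12 libraries and between 188 and 224 CPM in the 6 WT libraries. The p53-/- range lay wholly below the WT range, but Trp53 RNA was not absent, and its response to LPS and to the cytokines did not pass as different (log2 difference -0.08, SE 0.11, edgeR adjusted p = 0.98).

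After 3 h, 246 of 13657 tested genes were higher with LPS than with the cytokines (1.8%) and 48 were lower (0.351%), by edgeR's quasi-likelihood test with Benjamini-Hochberg adjustment at 0.05. The genes that were higher were led by antiviral effectors, guanylate-binding GTPases, the CXCR3 ligands Cxcl9 and Cxcl10 and the macrophage-attracting chemokines Ccl3 and Ccl4. The largest differences in the other direction were those of Lyl1, Arhgap25, Sash3 and Rasl12. The median log2 difference was 1.44 among the genes called higher, -0.87 among those called lower and -0.016 over all genes tested. A difference of at least 1 on the log2 scale was reached by 161 of the 246 and by 23 of the 48. Both replicates taken alone gave the same direction for all 246 and all 48. The genes were called on these same values, so this agreement is no separate support.

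Most of the higher calls were genes that rose with LPS. Each arm was tested on its own in the same fit: 3070 genes rose with LPS (22.5%) and 3020 fell (22.1%), against 3842 (28.1%) and 3667 (26.9%) for the mean of the cytokines, which rests on 8 libraries where the LPS change rests on 4. Of the 246 genes, 122 rose with LPS and with the cytokines, with median log2 changes of 2.54 and 0.77. Another 93 rose with LPS while their cytokine change did not pass, with medians of 1.67 and 0.01. A further 24 rose with LPS and fell with the cytokines, among them the interferon signal carrier Stat2, the RNA-activated kinase Eif2ak2, the double-stranded RNA receptor Tlr3, and the genes Pml, Apobec3, Trim26 and Herc6. The other 7 (A230050P20Rik, Calcrl, Frmd4b, Rfx5, Rin2, Stard5 and Uaca) fell with the cytokines and did not pass with LPS. Of the 48 genes called lower, 21 fell with LPS alone, 15 fell with both, 7 fell with LPS and rose with the cytokines, 4 rose with the cytokines alone, and Klhl21 rose less with LPS.

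**Figure D1:**
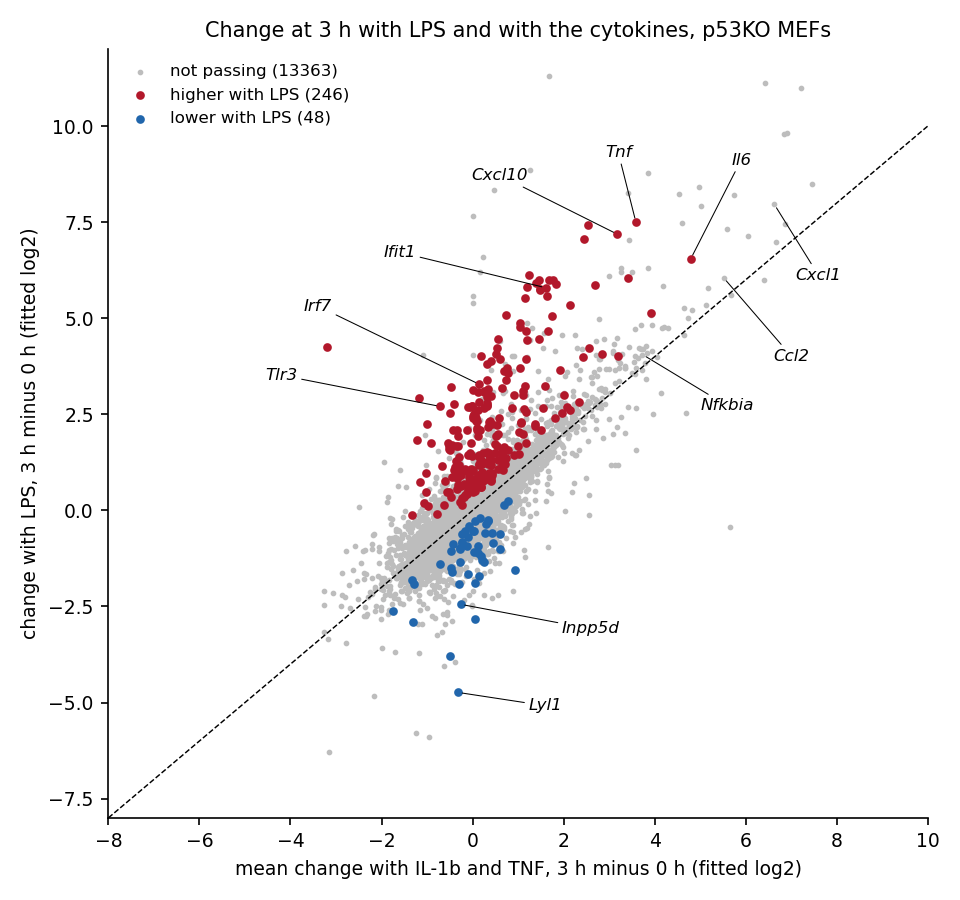
Change from 0 h to 3 h with LPS (vertical axis, fitted log2) against the mean change with IL-1b and TNF (horizontal axis, fitted log2) for the 13657 genes tested in p53-/- MEFs; the dashed line marks equal change. The 246 genes called higher with LPS (red) stand above the line, many of them near 0 on the cytokine axis. The NF-kB inhibitor gene Nfkbia and the chemokine genes Ccl2 and Cxcl1 rose with all stimuli. They were not called for the difference between these changes in the fit shown, though Ccl2 and Cxcl1 were under some other settings.

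The number of calls depended on how the comparison was made, more so for the genes that were lower. Levels at 3 h compared without the 0 h libraries gave 561 higher and 320 lower (245 of the 246 and all 48 among them), DESeq2's Wald test gave 237 and 27, and a fit of the 12 libraries alone gave 245 and 31. With the replicate number as a block, 297 were higher and 65 lower, all 246 and all 48 among them. Leaving out 1 library at a time gave between 180 and 253 higher and between 21 and 42 lower, with the count of lower genes down by more than 1.5 times without the LPS 0 h library of KO-1 (21) or KO-2 (28), the LPS 3 h library of KO-1 (26) or KO-2 (25), or the IL-1b 3 h library of KO-1 (29).

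Of 45 tested antiviral effectors, 41 were higher with LPS and none was lower. For this list and those that follow, the shares over all tested genes were 1.8% higher and 0.351% lower. The lists were written with earlier results of these data known. The antiviral list shares Isg15 and Usp18 with the list of interferon signalling. Ifit1 (chr19:34715361-34724499 in the mm9 build of the deposited table), whose protein binds viral RNA that lacks the host cap modification, was at 664 CPM in KO-1 and 584 CPM in KO-2 after LPS, against 35.8 and 34.4 CPM after IL-1b and 29.1 and 29.8 CPM after TNF. Its level before stimulation was between 8.32 and 12.8 CPM in all 6 libraries at 0 h. The 2 LPS libraries at 3 h stood above the other 10, and the 4 cytokine libraries at 3 h stood above the 6 at 0 h. The log2 difference between the responses was 4.18 (SE 0.16, edgeR adjusted p = 4.15e-15). Rsad2, which encodes viperin, an enzyme that makes a chain-terminating nucleotide, was at 493 and 379 CPM after LPS and between 16.2 and 20.3 CPM in the 4 cytokine libraries. The difference for Rsad2 was 4.62 on the log2 scale (SE 0.32, edgeR adjusted p = 1.56e-10).

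Parts of 6 promoters are shown, chosen after the values were seen: 4 of genes called higher with LPS (Ifit1, Rsad2, Cxcl10 and Gbp2) and 2 of genes that rose with all 3 stimuli and were not called for the difference in change from 0 h (Nfkbia and Cxcl1), so that the letters searched for can be seen in each. The sequences are from RefSeq (GRCm38.p6), 5′ to 3′ on the strand of the gene, and end upstream of the start site. Capitals mark matches to the ISRE core GAAANNGAA or to the kB motif GGGANTTTC, on either strand; adjoining capitals are overlapping matches. Ifit1 is at chr19:34640750-34640843 (plus strand), Rsad2 at chr12:26456533-26456601 (minus), Cxcl10 at chr5:92349064-92349132 (minus), Gbp2 at chr3:142620575-142620643 (plus), Nfkbia at chr12:55492648-55492790 (minus) and Cxcl1 at chr5:90891144-90891212 (plus).
Ifit1: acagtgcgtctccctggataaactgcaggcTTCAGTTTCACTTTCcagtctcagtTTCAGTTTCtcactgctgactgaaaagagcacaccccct
Rsad2: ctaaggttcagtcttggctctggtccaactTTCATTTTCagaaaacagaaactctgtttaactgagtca
Cxcl10: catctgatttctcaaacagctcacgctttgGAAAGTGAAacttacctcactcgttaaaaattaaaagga
Gbp2: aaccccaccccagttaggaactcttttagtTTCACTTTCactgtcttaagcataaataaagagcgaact
Nfkbia: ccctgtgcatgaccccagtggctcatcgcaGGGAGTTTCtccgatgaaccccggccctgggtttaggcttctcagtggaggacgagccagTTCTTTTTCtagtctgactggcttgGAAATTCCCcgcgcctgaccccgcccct
Cxcl1: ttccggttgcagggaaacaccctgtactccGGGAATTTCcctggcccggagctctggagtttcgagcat
The Ifit1 promoter held 3 ISRE core matches, the nearest at positions -84 to -76 from the start site, and Gbp2 held 1, at -58 to -50. Nfkbia held 2 kB matches and 1 ISRE core match in the printed stretch, and Cxcl1 held 1 kB match. Among the 191 genes called higher that have a RefSeq promoter in the table (250 bases before to 50 after the start), 75 held the ISRE core (39.3%), against 886 of 10232 tested genes (8.66%). The share was 5 of 39 (12.8%) among genes called lower, 20 of 35 (57.1%) in the antiviral list and 3 of 20 (15.0%) in the list of NF-kB subunits and feedback genes. The kB motif was held by 5 of the 191 genes called higher (2.62%), 115 of the 10232 tested (1.12%) and 3 of 20 in the NF-kB list (15.0%). A match describes these letters only and says nothing about binding.

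Mx2, a dynamin-like GTPase, was at 67.5 and 46.0 CPM after LPS and between 2.01 and 3.85 CPM after the cytokines (log2 difference 4.89, SE 0.50, edgeR adjusted p = 1.4e-07). Isg15, the ubiquitin-like modifier, was at 144 and 116 CPM after LPS and between 14 and 22.1 CPM after the cytokines, which is within its range before stimulation (11.4 to 25.1 CPM). Isg15 rose with LPS, and its change with the cytokines was 0.15 on the log2 scale and did not pass (edgeR adjusted p = 0.581). Among the other strongly different members were Cmpk2 (4.53), Ifit3b (4.38), Ifit1bl1 (4.30), Mx1 (4.24), Ifit3 (3.48), Ifit2 (2.72) and Tor3a (2.44), given as log2 differences that all passed. Ifit and Mx genes have close copies (Ifit1 and Ifit1bl1, Ifit3 and Ifit3b, Mx1 and Mx2), between which reads may have been split. The members that did not pass were Oas2 (2.40, edgeR adjusted p = 0.104), Samhd1 (0.41, edgeR adjusted p = 0.0975, and 0.0243 with the replicate as a block), Ifi27 (0.04) and Ifit1bl2, which had too few counts at 0 h for a fold.

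**Figure D2:**
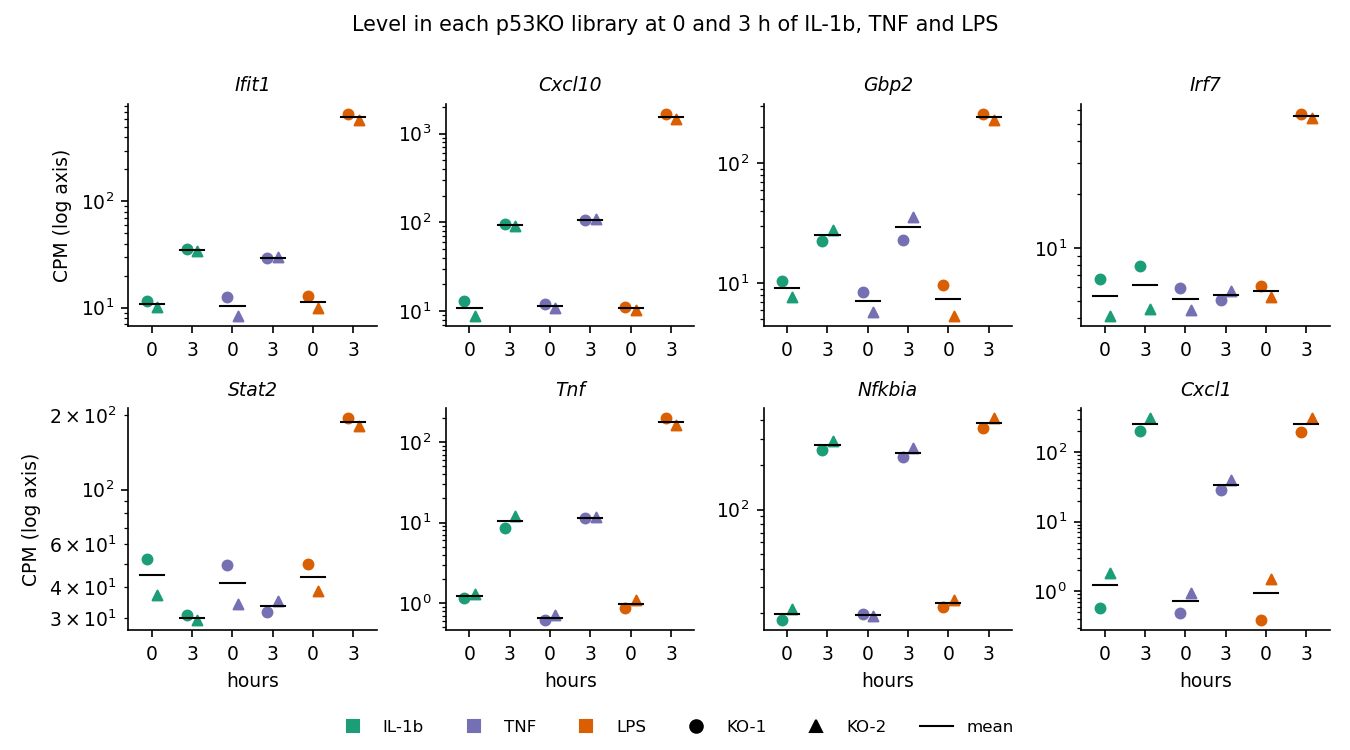
Levels (CPM, log axis) of 8 genes in each p53-/- library at 0 and 3 h of IL-1b, TNF and LPS; circles are KO-1, triangles KO-2 and bars the mean of both. Ifit1, Cxcl10, Gbp2, Irf7, Stat2, Tnf and Nfkbia were highest in the 2 LPS libraries at 3 h. Ifit1, Cxcl10, Gbp2, Tnf and Nfkbia also rose with the cytokines. Nfkbia was not called for the difference in change from 0 h, and Cxcl1 overlapped between IL-1b and LPS.

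Transcripts of interferon itself were at the edge of detection. Ifnb1, encoding interferon-beta, had no count in any of the 6 libraries at 0 h, 13 counts in the 2 LPS libraries at 3 h (0.897 and 0.753 CPM), 1 count after IL-1b and none after TNF. The pooled level was 27.0 times as high with LPS as with the cytokines (95% exact interval 4.06 to 1150, counting error only), and Ifnb1 was below the minimum for the test. Of the 15 tested genes of the interferon receptor and JAK-STAT list, 8 were higher and none was lower. Stat2, which carries the interferon signal to the nucleus, was at 195 and 180.5 CPM after LPS against 30.9 and 29.4 CPM after IL-1b and 31.8 and 35.2 CPM after TNF. Its 0 h libraries were between 34.3 and 52.3 CPM, so that 3 of the 4 cytokine libraries lay below that range and both LPS libraries above it. The LPS change was 2.10 and the cytokine change -0.43 on the log2 scale, and both passed. The difference was 2.53 (SE 0.19, edgeR adjusted p = 7.64e-10).

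Usp18, which blocks the interferon receptor, was at 140.2 and 109 CPM after LPS and between 8.29 and 12.6 CPM after the cytokines (log2 difference 3.68, SE 0.29, edgeR adjusted p = 1.85e-09). Socs1, an inhibitor of JAK kinases, was at 27.9 and 27.5 CPM against 4.84 to 7.82 CPM (1.89, edgeR adjusted p = 0.00022). Socs3, which acts mainly on IL-6 family receptors, was higher with LPS than with TNF (1.37, edgeR adjusted p = 1.1e-05) while the difference from IL-1b did not pass (0.38, edgeR adjusted p = 0.556). The receptor and kinase genes Ifnar1, Ifnar2, Ifngr1, Ifngr2, Jak1 and Tyk2, and Stat3, did not pass, although Ifnar2 did with the replicate as a block (0.42, edgeR adjusted p = 0.0492). Ifnar1 was between 98.2 and 126 CPM in all 6 libraries at 3 h.

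Among 8 tested interferon regulatory factors, Irf1, Irf2, Irf5, Irf7 and Irf9 were higher with LPS, and Irf3 and Irf8 were among those that did not pass. Irf7, which amplifies the interferon response, was at 56.8 and 53.7 CPM after LPS and between 4.5 and 7.92 CPM after the cytokines (log2 difference 3.13, SE 0.27, edgeR adjusted p = 5.15e-09). Irf1, which is itself an NF-kB target, rose with each stimulus but to different levels: 30.3 and 33.8 CPM after IL-1b, 64.0 and 72.4 CPM after TNF and 241 and 217 CPM after LPS. The 3 groups did not overlap, and the LPS response was 2.09 above the cytokine mean on the log2 scale (SE 0.17, edgeR adjusted p = 3.07e-09). Irf9, the DNA-binding part of the STAT complex, was at 94.0 and 87.1 CPM against 27.3 to 33.4 CPM (1.54). Irf3, which is activated by phosphorylation, stayed between 27.0 and 32.9 CPM at 3 h, with a log2 difference of 0.08. Irf8 was at 2.56 and 3.01 CPM after LPS and between 4.97 and 7.47 CPM after the cytokines, but the difference of -1.06 did not pass (edgeR adjusted p = 0.2), whereas the 3 h levels alone differed by -1.14 (edgeR adjusted p = 0.0079).

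Of 13 tested guanylate-binding protein (GBP) and immunity-related GTPase (IRG) genes, 9 were higher with LPS and none was lower, and the other 4 (Gbp2b, Gbp4, Tgtp1 and Gvin1) had too few counts at 0 h for a fold. These GTPases attack the membranes around intracellular pathogens. Gbp2 was at 256 and 229.7 CPM after LPS and between 22.6 and 35.3 CPM after the cytokines (3.30, SE 0.26, edgeR adjusted p = 1.85e-09). Igtp was at 100.3 and 92.8 CPM against 6.75 to 8.41 CPM, with no overlap between LPS and the rest (3.46, SE 0.19, edgeR adjusted p = 1.18e-12). Irgm2 (3.49) and Irgm1 (2.63) differed similarly; Irgm1 was at 564 and 485 CPM after LPS. Gbp2b was at 39.9 and 50.2 CPM after LPS and between 1.21 and 4.49 CPM after the cytokines, and passed with the replicate as a block (edgeR adjusted p = 0.0164). Members of this family are close copies of each other, so reads may have been split between them. Gm4841 and F830016B08Rik are in no list. F830016B08Rik was at 7.3 and 8.66 CPM after LPS and between 0.115 and 0.679 CPM after the cytokines (4.36, edgeR adjusted p = 0.00504). Gm4841, with too few counts at 0 h for a fold, was at 13.4 and 13.2 CPM against 0.33 to 0.592 CPM.

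Of 16 tested genes in the list of nucleic acid sensing, 10 were higher and none was lower. The list also holds Nod1 and Adar, which were higher, and Nod2, whose products are not nucleic acid sensors. Ifih1, which senses long double-stranded RNA, was at 104 and 92.2 CPM after LPS and between 15.5 and 18.5 CPM after the cytokines (log2 difference 2.57, edgeR adjusted p = 3.18e-08). Ddx58, which encodes RIG-I, was at 158 and 162 CPM against 39.6 to 51.4 CPM (1.77, edgeR adjusted p = 1.59e-08). Tlr3 was at 21.0 and 20.9 CPM after LPS, and its cytokine libraries (1.42 to 2.88 CPM) were below its 0 h libraries (2.89 to 4.42 CPM). Its LPS and cytokine changes were thus of opposite sign, 2.70 and -0.71, and differed by 3.41 (SE 0.35, edgeR adjusted p = 1.31e-07). The DNA sensing pair Cgas and Tmem173, and Aim2, Tlr7, Nod2 and the RNA sensing adaptor Mavs, did not pass. With the replicate as a block Cgas (0.71, edgeR adjusted p = 0.0139) and Tmem173 (0.38, edgeR adjusted p = 0.0264) passed.

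Of 20 tested genes of antigen presentation and the immunoproteasome, 14 were higher and none was lower, with a median of 0.81 over the 19 with enough counts at 0 h. Tap1, which pumps peptides into the endoplasmic reticulum, was at 40.2 and 39.3 CPM after LPS and between 4.38 and 5.07 CPM after the cytokines (2.83, SE 0.25, edgeR adjusted p = 1.46e-08). The class I genes H2-Q4 (1.43), H2-T22 (1.25) and H2-D1 (0.74) passed, as did the immunoproteasome subunit Psmb8 (1.81) and the class I transactivator Nlrc5 (2.04, edgeR adjusted p = 0.0059). B2m, the light chain of all class I molecules, was at 546 and 523 CPM against 348 to 383 CPM (0.46, edgeR adjusted p = 0.000179). H2-K1 was at 112 and 109.7 CPM against 63.8 to 86.7 CPM, with a difference of 0.58 that did not pass (edgeR adjusted p = 0.093, and 0.0127 with the replicate as a block). Reads of class I genes may be split among near-identical copies.

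**Figure D3:**
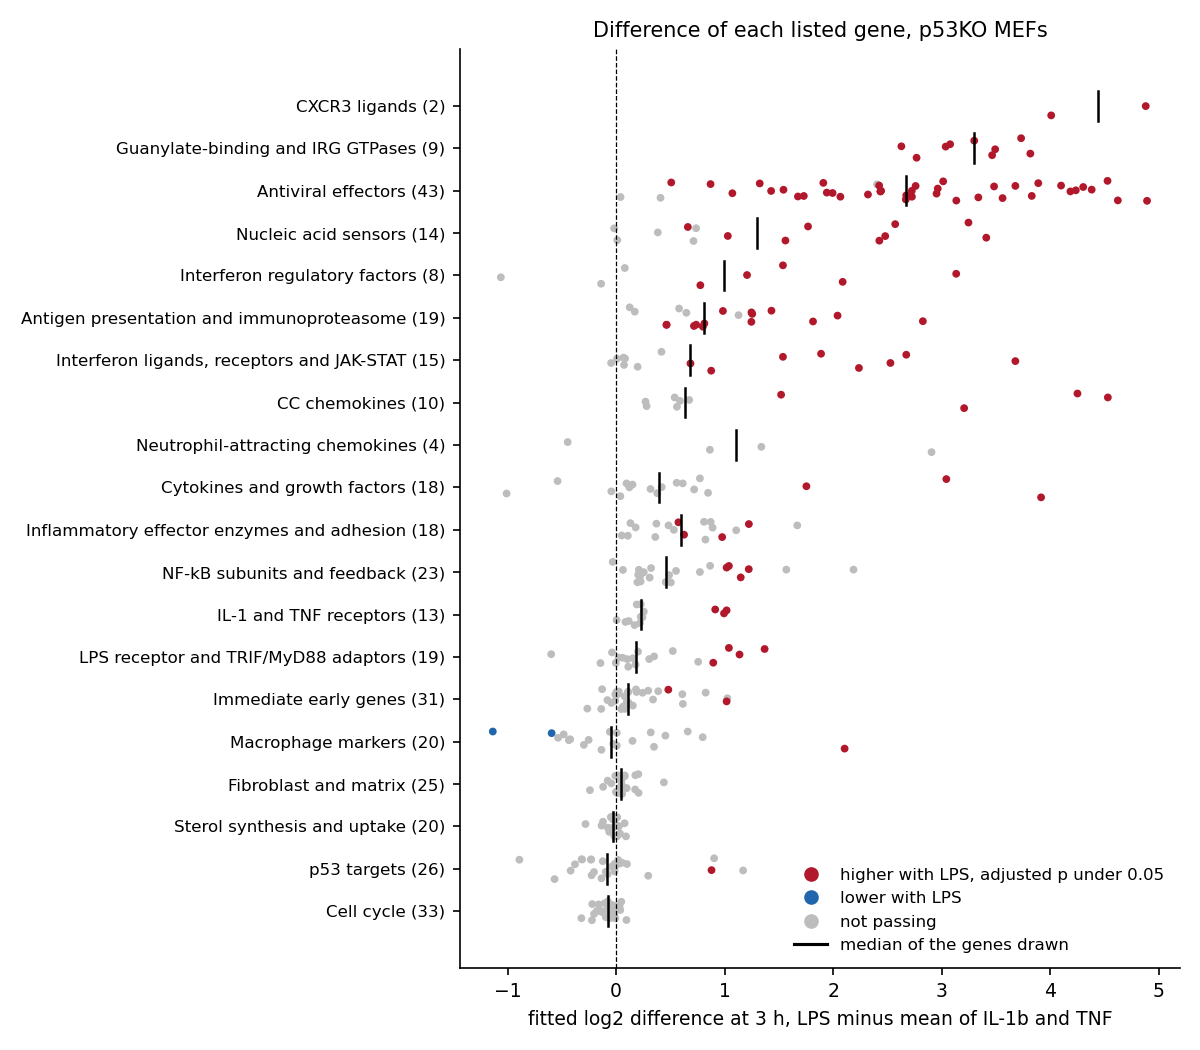
Fitted log2 difference between the LPS response and the mean cytokine response for each member of 20 gene lists that had over 3 counts at 0 h in each series; the number of genes drawn is in brackets, red marks genes called higher, blue genes called lower and grey genes that did not pass, and bars are medians. Medians are furthest from 0 for the CXCR3 ligands (4.44), the GTPases (3.30) and the antiviral effectors (2.67), while sterol (-0.03), cell cycle (-0.07) and fibroblast genes (0.05) lie at 0.

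Cxcl10, a ligand of CXCR3, the chemokine receptor of activated T cells, was at 1661 and 1453 CPM after LPS, against 96.1 and 91.1 CPM after IL-1b, 106 and 108 CPM after TNF, and 8.77 to 13 CPM at 0 h. All stimuli raised it, and LPS raised it by 4.01 more on the log2 scale (SE 0.17, edgeR adjusted p = 1.5e-14). Cxcl9 was at 34.6 and 30.5 CPM after LPS and between 1.54 and 2.88 CPM after the cytokines (4.88, SE 0.80, edgeR adjusted p = 0.000284). Cxcl11, the third ligand, had 1 count in all libraries at 0 h and reached 4.36 and 4.64 CPM after LPS against 0 to 0.461 CPM after the cytokines. The chemokine-binding receptor gene Ccrl2, also with few counts at 0 h, was at 27.0 and 27.6 CPM after LPS and between 0.44 and 1.5 CPM after the cytokines.

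Of 13 tested CC chemokines, Ccl3, Ccl4, Ccl5 and Ccl9 were higher with LPS and none was lower. Ccl3, which attracts monocytes and macrophages, was at 132 and 106 CPM after LPS and between 6.46 and 7.15 CPM after the cytokines (log2 difference 4.25, SE 0.30, edgeR adjusted p = 2.03e-10). Ccl4 was at 108 and 87.8 CPM against 4.07 to 5.76 CPM (4.53, SE 0.40, edgeR adjusted p = 1.15e-08), and Ccl5 at 36.9 and 43.5 CPM against 6.05 to 8.15 CPM (3.21, edgeR adjusted p = 0.00104). Ccl7 was at 460.1 and 420.2 CPM after LPS and 229.8 to 314 CPM after the cytokines, and did not pass in the reported fit (0.56, edgeR adjusted p = 0.0975). It passed in the 12 libraries fitted alone (0.58, edgeR adjusted p = 0.0156) and without a filter on low counts (0.56, edgeR adjusted p = 0.00275). The 3 h levels of Ccl7 alone differed by 0.69 (edgeR adjusted p = 4.62e-06). Ccl2 narrowly missed in the reported fit (0.54, edgeR adjusted p = 0.0566). It passed with the replicate as a block (0.54, edgeR adjusted p = 0.0182) and in the 12 libraries fitted alone (0.56, edgeR adjusted p = 0.0154). DESeq2's Wald test also called it (0.54, adjusted p = 0.0177), as did edgeR without a filter on low counts (adjusted p = 0.000176). Its 3 h levels alone differed by 0.65 (edgeR adjusted p = 9.15e-06).

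Of 5 tested neutrophil-attracting chemokines, 4 rose with LPS and 5 with the cytokines. None passed in the reported fit for the difference between these changes. Against TNF on its own 1 of the 5 was higher (1.63% of all tested genes were), and against IL-1b none. Cxcl1 was at 191 and 306 CPM after LPS, 199.8 and 304 CPM after IL-1b and 28.1 and 39.7 CPM after TNF, so LPS and IL-1b overlapped and TNF stood apart. Its difference from the cytokine mean was 1.34 with an SE of 1.35 (edgeR adjusted p = 0.956), and its 0 h levels were between 0.383 and 1.84 CPM. Without a filter on low counts the same difference from 0 h passed (1.34, edgeR adjusted p = 0.0431). The 3 h levels of Cxcl1 alone differed by 1.42 from the mean of the cytokines (SE 0.28, edgeR adjusted p = 0.00124). Cxcl2 was at 164 and 179 CPM after LPS and between 27.9 and 82.3 CPM after the cytokines, without overlap. Taken from 0 h its difference was 2.91 (SE 1.23) and did not pass in the reported fit (edgeR adjusted p = 0.45). It passed from 0 h in DESeq2's Wald test (2.95, adjusted p = 0.0303) and in edgeR without a filter (2.91, adjusted p = 0.00554). The 3 h levels of Cxcl2 alone differed by 1.89 (SE 0.15, edgeR adjusted p = 5.28e-10).

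Among 26 tested cytokines and growth factors, Tnf, Il6 and Il15 were higher with LPS. Tnf itself was at 198 and 162 CPM after LPS and between 8.69 and 12.2 CPM after the cytokines, and TNF-treated cells (11.3 and 11.6 CPM) lay within the range of IL-1b-treated ones. The difference for Tnf was 3.92 (SE 0.54, edgeR adjusted p = 2.17e-05). Il6 separated the cytokines: 124 and 119 CPM after IL-1b, 21.1 and 19.0 CPM after TNF and 199 and 162 CPM after LPS. It passed against TNF (2.85, edgeR adjusted p = 7.88e-05), against the mean of both (1.75, edgeR adjusted p = 0.000408) and not against IL-1b (0.66, edgeR adjusted p = 0.71). Il15, which sustains natural killer cells, was low in all libraries, at 4.23 and 3.39 CPM after LPS and 0.115 to 0.66 CPM after the cytokines (3.04, edgeR adjusted p = 0.0446), and lost its call without any of 10 of the 12 libraries.

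Several cytokine and enzyme genes had almost no counts at 0 h, which leaves the change from 0 h without a usable fold, and are described by their 3 h levels. Il1b was at 90.5 and 88.3 CPM after LPS and between 2.19 and 4.14 CPM after the cytokines. Il12b, a subunit of IL-12 and IL-23, had 485 counts after LPS and 2 after the cytokines, a ratio of pooled levels of 504 (95% exact interval 139 to 4180, counting error only). Il27 had no count after either cytokine and was at 1.67 and 3.26 CPM after LPS, at least 29.2-fold higher (against 3 counts over the 4 cytokine libraries). Acod1, which makes the metabolite itaconate, was at 221 and 192 CPM against 10.3 to 36.2 CPM, and Nos2, the inducible nitric oxide synthase, at 28.7 and 25.7 CPM against 0.951 to 7.46 CPM. The 3 h levels differed by 4.71 for Il1b, 3.41 for Acod1 and 3.42 for Nos2 on the log2 scale, and each passed in edgeR's test of levels. Csf3 (19.5 and 27.6 CPM after LPS, 13.3 and 19.8 CPM after IL-1b) and Csf2 overlapped between LPS and IL-1b. Il1b, Il12b, Acod1, Tnf, Ccl3 and Ccl4 are also made by macrophages; the 20 macrophage markers summed to 757 and 627 CPM after LPS and to between 569.5 and 736 CPM after the cytokines. Without Cybb, a marker that was itself higher with LPS, the other 19 summed to 697 and 573 CPM after LPS and to between 550.5 and 727 CPM after the cytokines, and their part in these results was not tested.

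Of 23 NF-kB subunits and feedback genes, 4 were higher with LPS (Tnfaip3, Zfp36, N4bp1 and Ikbke) and none was lower, with a median of 0.46. Nfkbia, which encodes the inhibitor IkB-alpha, was at 358 and 414 CPM after LPS and between 226 and 292 CPM after the cytokines. Its changes from 0 h were 4.06 with LPS and 3.73 with the cytokines, and the difference of 0.32 did not pass (edgeR adjusted p = 0.561). Its 3 h levels alone differed by 0.58 (SE 0.09, edgeR adjusted p = 4.05e-05). Tnfaip3, the ubiquitin-editing inhibitor A20, was at 236 and 285 CPM against 84.3 to 145 CPM (1.22, SE 0.25, edgeR adjusted p = 0.00452). N4bp1, an RNase that restrains NF-kB-driven transcripts, was at 139.5 and 137 CPM after LPS against 62.5 to 67.7 CPM, a range below its 0 h levels of 68.2 to 72.7 CPM (1.15, SE 0.10, edgeR adjusted p = 3.61e-09). Zfp36, which destabilises cytokine mRNA, was at 103 and 109.7 CPM against 44.7 to 58.7 CPM (1.02, edgeR adjusted p = 0.00031).

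Of the genes of the LPS receptor and its signalling, 4 of 19 tested were higher and none was lower. Cd14, the co-receptor, was at 92.0 and 84.9 CPM after LPS and between 27.6 and 33.4 CPM after the cytokines (1.37, SE 0.17, edgeR adjusted p = 2.88e-06). Myd88 was at 89.2 and 90.1 CPM against 34.4 to 42.8 CPM (1.14, edgeR adjusted p = 2.55e-07), and Peli1 (0.90) and the IRF3 kinase Ikbke (1.04) also passed. Tlr4 was low, between 6.15 and 9.65 CPM at 3 h with overlapping groups (-0.60, edgeR adjusted p = 0.474), and the TRIF gene Ticam1 was between 19.6 and 27.0 CPM (-0.14). Of 13 tested genes of IL-1 and TNF receptor signalling, 3 were higher. They were the receptor antagonist Il1rn (78.4 and 69.8 CPM against 31.9 to 37.5 CPM; 1.02, edgeR adjusted p = 3.96e-06), Tnfrsf1b (0.91) and Rnf31 (0.99).

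Inflammatory enzymes and adhesion genes contributed 4 calls of 24 tested. Ch25h, which makes the antiviral oxysterol 25-hydroxycholesterol, was at 264 and 255 CPM after LPS and between 80.3 and 126 CPM after the cytokines (1.22, SE 0.14, edgeR adjusted p = 1.44e-06). Vcam1, which binds leukocyte integrins, was at 901 and 964 CPM against 547 to 684 CPM, a smaller difference that also passed (0.57, edgeR adjusted p = 0.000165), as did Has2 (0.63) and Serpina3g (0.98). Immediate early genes had 2 calls of 33 (Zfp36 and Ier3). None passed among 20 sterol genes, 33 cell cycle genes and 25 fibroblast and matrix genes in either direction, nor among the few endothelial, epithelial, muscle and neural markers tested. Over all tested genes 1.8% were higher and 0.351% lower. Lists of these sizes would thus hold few calls or none, and nothing is read from such counts. Among 26 p53 targets, Cdkn1a, the cell cycle inhibitor p21, was higher with LPS. It was at 82.1 and 95.7 CPM after LPS against 40.9 to 56.9 CPM after the cytokines (0.88, edgeR adjusted p = 0.00572). In these p53-/- cells Cdkn1a rose from 0 h with LPS and with the cytokines. Its 3 h levels still lay far below the WT level at the unlike time of 0 h, 342 to 356 CPM.

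Of the 48 genes called lower, 2 were members of a list (Csf1r and Cx3cr1) and 46 of none (0.351% of tested genes were called lower). Lyl1, a haematopoietic transcription factor, was at 1.43 to 2.08 CPM after the cytokines and at 1.75 to 2.33 CPM in the 6 libraries at 0 h, but had no count in KO-1 and 0.126 CPM in KO-2 after LPS. This was 1 count against 57, a ratio of pooled levels of 0.0365 (95% exact interval 0.000908 to 0.212, counting error only; edgeR adjusted p = 0.00107), and it was not called by DESeq2. Arhgap25, a Rac-inhibiting protein of phagocytes, had 3 counts after LPS and 65 after the cytokines, a ratio of 0.096 (0.0193 to 0.293; edgeR adjusted p = 0.00698). Inpp5d, the phosphatase SHIP-1, was at 1.79 and 1.13 CPM after LPS and between 4.76 and 7.37 CPM after the cytokines (log2 difference -2.18, SE 0.44, edgeR adjusted p = 0.0037). In all 3 the LPS libraries at 3 h lay below the other 10.

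Other genes called lower had these log2 differences: Sash3 (-2.90), Nfam1 (-1.94), Cd300lb (-1.84), Dok2 (-1.62), Ccr1 (-1.54), Fmnl1 (-1.37), Ptpn7 (-1.31) and Vav1 (-1.22), all of which passed; Ccr1 and Dok2 lost their calls without any of 7, and Ptpn7 without any of 10, of the 12 libraries. Tlr13, a receptor for bacterial ribosomal RNA, was at 2.95 and 1.63 CPM after LPS and between 4.89 and 6.82 CPM after the cytokines (-1.62, edgeR adjusted p = 0.00563). Among the 20 macrophage markers, Cx3cr1, the fractalkine receptor, fell further with LPS (5.64 and 8.15 CPM against 12 to 15.9 CPM; -1.14, edgeR adjusted p = 0.000744). Csf1r, the receptor for the macrophage growth factor, was at 36.0 and 33.0 CPM after LPS and at 45.7 to 53.1 CPM after the cytokines (-0.59, edgeR adjusted p = 0.0485), a call that was lost without any of 11 of the 12 libraries. Set against each cytokine on its own, Cx3cr1 and Csf1r passed against TNF and not against IL-1b. Cybb, the phagocyte oxidase subunit, was higher with LPS (59.8 and 54.2 CPM against 8.69 to 19.0 CPM; 2.10, edgeR adjusted p = 1.4e-07). The other 17 did not pass; Lyz2 (-0.06), Cd68 (-0.03) and Ptprc (0.80, edgeR adjusted p = 0.314, and 0.0492 with the replicate as a block) were among them. The median log2 difference over the 20 was -0.04, beside -0.016 over all genes. The summed levels after LPS and after the cytokines, with and without Cybb, are given above with those of the cytokine genes, and the part of macrophages in the lower calls was not tested.

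**Figure D4:**
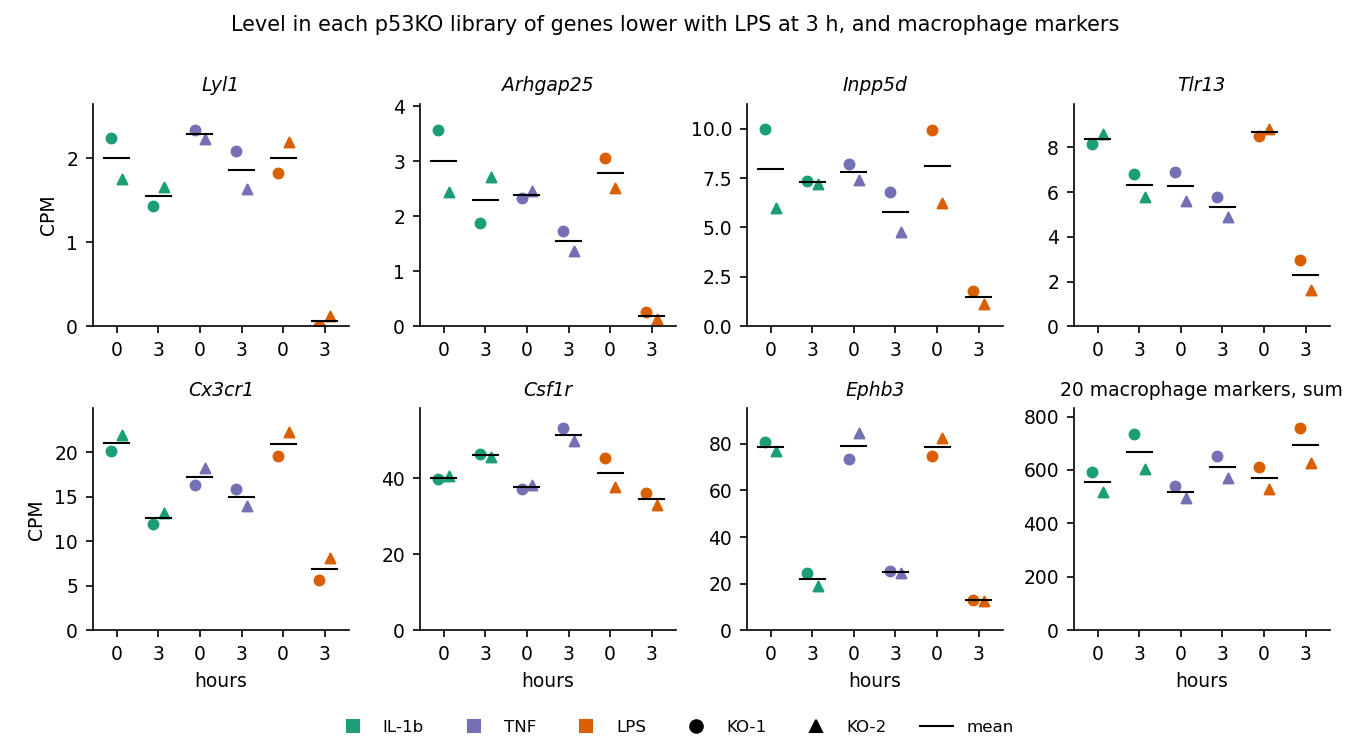
Levels (CPM, axes from 0) of 7 genes called lower with LPS and the summed level of 20 macrophage markers, in each p53-/- library at 0 and 3 h; circles are KO-1, triangles KO-2 and bars the mean. The 2 LPS libraries at 3 h lie lowest for each of the 7 genes, and the marker sum is 757 and 627 CPM after LPS and 569.5 to 736 CPM after the cytokines. This sum includes Cybb, which was higher with LPS (59.8 and 54.2 CPM against 8.69 to 19.0 CPM).

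Ephb3, a receptor for ephrins, was abundant before stimulation (73.7 to 84.7 CPM) and fell with all stimuli, to 12.9 and 12.8 CPM with LPS and to between 19.2 and 25.4 CPM with the cytokines (-0.87, SE 0.15, edgeR adjusted p = 0.000767). Mnt, which competes with Myc for its partner Max, was at 21.5 and 23.1 CPM after LPS and between 39.1 and 47.3 CPM after the cytokines (-0.81, SE 0.13, edgeR adjusted p = 0.000233). Hexim1, an inhibitor of the elongation factor P-TEFb, was at 19.7 and 20.8 CPM against 27.6 to 31.7 CPM (-0.71, edgeR adjusted p = 0.00193). The amino acid transporter gene Slc43a2 (-1.51, edgeR adjusted p = 0.00538) and Rab3il1, which activates small GTPases of vesicle traffic (-1.59, edgeR adjusted p = 0.00739), also passed. Osgin1, an oxidative stress response gene, was at 1.79 and 1.88 CPM against 3.53 to 5.8 CPM (-1.61, edgeR adjusted p = 0.000984).

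Set against each cytokine on its own, LPS gave 195 higher genes (1.43%) and 28 lower (0.205%) relative to IL-1b, and 223 higher (1.63%) and 38 lower (0.278%) relative to TNF; with the replicate number as a block the last count was 59. These comparisons share the LPS libraries. Of the 246 genes called against the mean, 152 passed against both cytokines (median log2 difference 1.82), 38 against IL-1b alone, 35 against TNF alone and 21 against neither. Those that passed against TNF alone had a median of 0.62 and included Il6, Socs3, Ier3, Has2, Map3k8 and the transcription factor gene Cebpd. Cebpd, chosen after its values were seen, was at 169 and 184 CPM after IL-1b, 44.8 and 59.1 CPM after TNF and 137 and 147 CPM after LPS, so that LPS lay between the cytokines; its difference was 1.71 from TNF (edgeR adjusted p = 1.09e-05) and -0.09 from IL-1b. Of the 48 called lower, 11 passed against both: Adam8, Arhgap25, Ephb3, Hexim1, Inpp5d, Lyl1, Mnt, Osgin1, Samd1, Sash3 and Tlr13. Between the cytokines themselves 13 genes were higher with IL-1b (0.0952%) and 2 with TNF (0.0146%), among them Irf1, with a log2 difference of -1.19 for IL-1b minus TNF.

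The same contrast at 1 h and 8 h uses the same 0 h libraries, so its values are set beside those at 3 h without a test of the change. At 1 h, 12 genes were higher with LPS (0.0879%) and 38 were lower (0.278%); at 8 h, 557 were higher (4.08%) and 87 lower (0.637%). Ifit1 and Cxcl10 were not called at 1 h. The log2 differences of Cxcl10 at 1, 3 and 8 h were -0.55, 4.01 and 5.54, and those of Tap1 were -0.43, 2.83 and 4.21. Tnf was called at each time, with differences of 4.30, 3.92 and 3.37, and Ccl3 had 2.78 at 1 h and 4.25 at 3 h. Irf1 and Tnfaip3 were lower with LPS than with the cytokines at 1 h (-2.74 and -2.32) and higher at 3 h (2.09 and 1.22); Ier3, Il6, Map3k8, Pim1 and Vcam1 were likewise called in opposite directions at the 2 times. Of the 246 genes, 212 were also called higher at 8 h and none lower, and of the 48 called lower, 5 were called lower at 8 h. Lyl1 was among them (-2.54, edgeR adjusted p = 0.00612), while Inpp5d (-0.76), Mnt (0.06) and Ephb3 (-0.17) did not pass at 8 h.

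WT cells, which share no library with the p53-/- cells, gave the same direction for 235 of the 246 genes called higher and 37 of the 48 called lower; over all tested genes, 50.5% were positive and 49.2% negative in WT. In log2 CPM, the median difference of the 246 was 0.81 in WT and 1.43 in the mean of KO-1 and KO-2, and that of the 48 was -0.38 and -0.84. The genes were chosen on the p53-/- values, so no difference in size between the genotypes is read from these medians. With 1 WT library a group these values have no error of their own. After 3 h of LPS, Ifit1 was at 124 CPM in WT (5.58 with IL-1b and 9.1 with TNF), Cxcl10 at 289.8 CPM (20.6 and 38.1) and Irf7 at 17.6 CPM (1.28 and 2.92), and these LPS levels were lower than in the p53-/- libraries. The difference between the responses, in log2 CPM, was 3.81 in WT beside 4.26 in KO-1 and 4.09 in KO-2 for Ifit1, 3.91 beside 4.21 and 3.78 for Cxcl10, and 2.87 beside 3.15 and 3.06 for Irf7. Nfkbia was at 374 CPM in WT after LPS, within its p53-/- range of 358 to 414 CPM, and Tlr2 at 96.3 CPM, below 119.9 and 121 CPM. Rasl12 went the other way: in p53-/- cells it was at 0.769 and 0.251 CPM after LPS and 1.63 to 3.2 CPM after the cytokines, and in WT at 5.58 CPM after LPS and 4.85 and 4.06 CPM after IL-1b and TNF; its p53-/- call was lost without any of 7 of the 12 libraries.

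A test of the genotype difference in this contrast, with WT groups assumed to vary like the p53-/- groups, called 0 of 13851 genes in either direction by edgeR's quasi-likelihood test; 265 were higher and 301 lower in p53-/- at an unadjusted p under 0.05. DESeq2 called 0 as well, with 77 and 93 at an unadjusted p under 0.05, and edgeR without a filter on low counts called 10 and 2. Unadjusted p-values under 0.05 also arise where no gene differs, so nothing is read from the unadjusted counts.

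**Figure D5:**
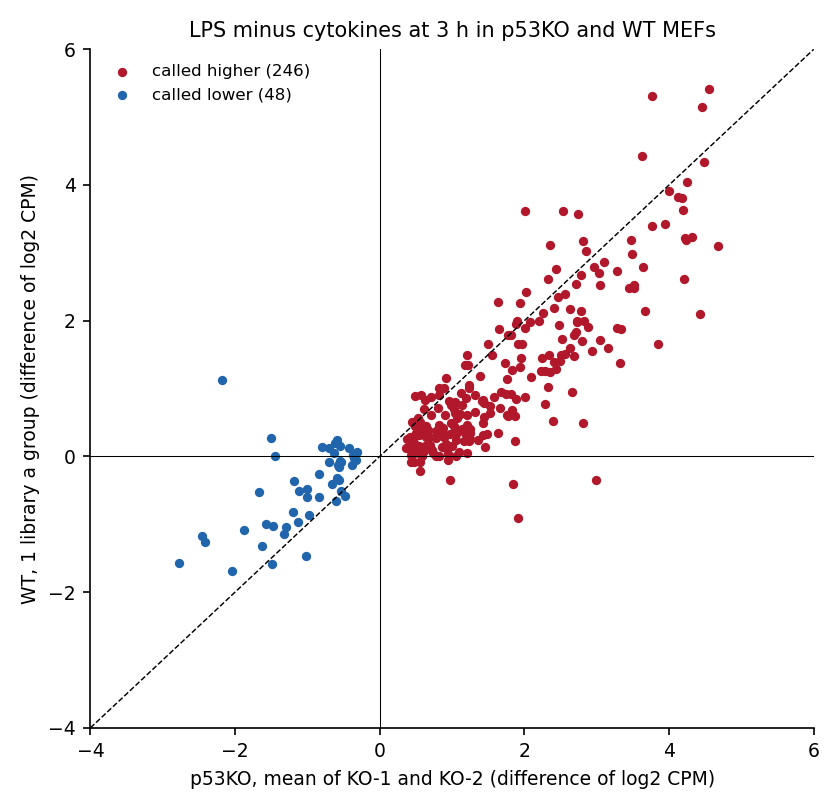
Difference between the LPS response and the mean cytokine response at 3 h (log2 CPM) in WT MEFs (vertical axis, 1 library a group) against the mean of KO-1 and KO-2 (horizontal axis) for the 246 genes called higher (red) and the 48 called lower (blue) in p53-/- MEFs; the dashed line marks equal values. Most points have the same sign in WT, 235 of 246 and 37 of 48. The genes were called on the p53-/- values plotted, so nothing is read from where points lie relative to the line.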

How the data were processed

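Raw counts per gene for all 45 libraries were used as deposited by the authors; per the submitters' processing notes STAR, featureCounts, DESeq and the mm9 build were used, with versions, annotation release and strand setting not given in the sources used here. Of 37991 genes, 32919 had a symbol. The 5 rows that name no gene (24.65% of all counts) were left out of library sizes and tests. No 2 libraries held identical values. Replicates are the libraries labelled KO-1 and KO-2.

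All 30 p53-/- libraries (15 groups) were fitted together with edgeR 4.0.16 in R 4.3.3 (TMM scaling, quasi-likelihood test, Benjamini-Hochberg adjustment at 0.05) over the 13657 genes that reached 1 CPM in 2 or more libraries. Fitted log2 values carry a prior count of 0.125, and log2 CPM a prior count of 2. The 12 libraries of the contrast held 7630893 to 11348859 gene counts and all 30 fitted libraries 5619870 to 15355994. At these sizes counting error limits genes near 1 CPM. Genes with 3 or fewer counts at 0 h in any series are given by their levels at 3 h. The script was tested on simulated data. DESeq2 1.42.0, other filters, scalings, baselines and sample sets, and leaving out each library, were the alternatives.

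The comparison, gene lists and motifs were chosen with earlier results of these data known. Named genes are the 15 largest differences in each direction among called genes with a mean of at least 1 CPM and 1 sign in both replicates, up to 4 members of each list by adjusted p, and Trp53; every other gene given was chosen after its values were seen. Replicate numbers were checked for pairing: the deviations of KO-1 correlated between groups with a median r of 0.092 (-0.026 to 0.449; 7 of 15 pairs over 0.1; 10516 genes), which does not by itself show pairing. Since the labels name KO-1 and KO-2 alike in every series, the numbers can be taken as pairing the libraries. The p-values given are from the fit without this pairing unless a block is named. A fit with the replicate as a block is given for the counts against the cytokine mean. Elsewhere it is given where it changes the call of a named gene or moves a count by over 1.5 times. A few genes are not reported here.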

Additional observations from a re-analysis of the deposited data

How the results depend on the processing

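Compared as levels at 3 h without the 0 h libraries, LPS gave 561 higher and 320 lower genes against the cytokine mean, 406 and 150 against IL-1b, and 650 and 468 against TNF. DESeq2's Wald test gave 27 lower against the mean and 18 against TNF, and the 12 libraries fitted alone gave 31 and 21. Without a filter on low counts there were 48 lower against IL-1b, and 10 higher and 2 lower for the genotype difference. With the replicate number as a block, 59 were lower against TNF, and the block moved no other count by over 1.5 times. The cause of these shifts was not tested. The other planned scalings, filters and sample sets, and the removal of length and GC trends (added after seeing the data), kept counts within 1.5 times.

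Leaving out 1 library at a time gave 180 to 253 higher and 21 to 42 lower against the mean, 147 to 197 and 12 to 30 against IL-1b, and 143 to 231 and 18 to 36 against TNF. For the change with LPS the ranges were 2476 to 3099 risen and 2238 to 3037 fallen, for the cytokines 3452 to 3819 and 3300 to 3647, and for the genotype difference 0 in both directions. The lowest count against TNF, 143, came without the TNF 0 h library of KO-1. Against IL-1b, counts of lower genes fell to 12 and 15 without the LPS 3 h library of KO-1 and KO-2, 16 without the LPS 0 h library of KO-1, 15 without the IL-1b 0 h library of KO-2 and 18 without the IL-1b 3 h library of KO-1. Against TNF, leaving out any LPS or TNF library of either replicate gave 18 to 23 lower.

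Of 112 named genes that were called, none changed direction, 72 kept their call with each of the 12 libraries left out in turn, and 70 kept it under every alternative run. Calls of 8 (A230050P20Rik, Ccr1, Csf1r, Dok2, Il15, Ptpn7, Rasl12 and Uaca) were lost with 6 or more of the 12 libraries left out in turn. A fit of the 12 libraries alone lost A230050P20Rik, Calcrl, Dok2, Klhl21, Ptpn7, Rasl12 and Uaca. Lyl1 was lost in DESeq2 and B2m with length and GC trends removed. Of 40 named genes that were not called, 22 were called as levels at 3 h (among them Nfkbia, Cxcl1, Ccl7, H2-K1, Irf8, Cgas, Tmem173 and Nod2), 11 without a filter, 8 with the replicate block (Ccl2, Cgas, Gbp2b, H2-K1, Ifnar2, Ptprc, Samhd1 and Tmem173; the block lost no named call) and 4 in DESeq2. Changes of direction were found in uncalled genes with differences near 0 or few counts. As levels at 3 h, Ifit1bl2 was at 3.25 and Lyz2 at 0.092; Ifit1bl2 was at 0.45 with a prior count of 2, Mavs at 0.006 in the 12 libraries alone and Tlr7 at -0.012 with length and GC trends removed. With 1 library left out, the log2 differences ranged from -5.34 to 1.43 for Ifit1bl2, -0.33 to 0.17 for Lyz2, -0.095 to 0.073 for Mavs, -0.17 to 0.20 for Tlr7, -0.085 to 0.104 for Tyk2, -0.23 to 0.15 for Cd68, -0.015 to 0.11 for Ifi27, -0.019 to 0.17 for Irf3 and -0.10 to 0.011 for Ifngr1.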

Other observations

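Of the 246 genes called higher with LPS, 136 were members of none of the 24 lists. The genes named here from among them were chosen after their values were seen, and no test of a common function was made. Cd274, which encodes the T cell inhibitory ligand PD-L1, was at 104 and 81.4 CPM after LPS in KO-1 and KO-2 and between 4.61 and 5.17 CPM after the cytokines (log2 difference 4.28, SE 0.36, edgeR adjusted p = 3.65e-09). Samd9l, a restriction factor for poxviruses, was at 124 and 97.6 CPM against 14.1 to 19.0 CPM, and Rnf213, a giant ubiquitin ligase, at 451 and 433 CPM against 81.0 to 106 CPM. Their log2 differences were 2.85 and 2.27. Daxx, a histone H3.3 chaperone, was at 160.3 and 142 CPM against 44.6 to 50.3 CPM (1.82, edgeR adjusted p = 1.29e-10). Rassf4 was at 59.8 and 54.0 CPM against 7.59 to 11.1 CPM (2.81, edgeR adjusted p = 1.56e-11). In each of these 5 genes the LPS libraries lay above the cytokine libraries without overlap.

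Nlrp3, the inflammasome sensor, was at 28.3 and 26.9 CPM after LPS and between 5.83 and 13.3 CPM after the cytokines (1.65, edgeR adjusted p = 0.0109), and Mlkl, the executor of necroptosis, at 19.7 and 17.2 CPM against 7.07 to 9.35 CPM (1.07, edgeR adjusted p = 0.00558). The call of Nlrp3 was lost without any of 3 of the 12 libraries. Tlr2, the receptor for bacterial lipoproteins, was at 119.9 and 121 CPM against 33.1 to 54.1 CPM (1.56, edgeR adjusted p = 5.85e-06). Clec4e, which binds mycobacterial glycolipid, was at 77.5 and 60.9 CPM against 5.8 to 19.9 CPM (2.65, edgeR adjusted p = 0.0128), a call lost without any of 4 libraries. Cd40 was at 7.17 and 7.53 CPM against 1.5 to 2.84 CPM (1.99, edgeR adjusted p = 0.0138), and was 1 of 10 genes called higher whose difference was negative in WT (-0.40 in log2 CPM, 1 library a group); its call was lost without any of 3 libraries.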
